A study of Mus musculus with 12 samples.

Results

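The p53 pathway and the Cdk inhibitors were followed through 10 genes: Trp53, Mdm2, Cdkn1a, Cdkn1b, Cdkn2a, Cdkn2b, Cdkn2c, Bax, Ccng1 and Phlda3. They were picked by gene symbol, each matched 1 row, and they are 10 of the 36254 genes in the table. RNA was sequenced from 12 mouse libraries in 4 groups of 3. Control is normal lung. Model stands for orthotopic tumours, which grow inside the lung, with no treatment, and Taurine and Proline for such tumours treated with that amino acid. The tissue label reads tumour for every sample, while the design text names normal lung as the control; the design text is followed here. Sample titles give C57 for all 12 libraries. The tumour cells, the dose and schedule of the amino acids, and the age and number of animals are not stated in the labels. Whether replicates came from different animals is not stated either, so the p-values describe spread among the libraries, which may be technical.

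The p53 protein, encoded by Trp53, is a transcription factor that is stabilised by DNA damage and other stress. It switches on genes that halt the cell cycle, repair DNA or kill the cell, and it also switches on Mdm2, whose protein marks p53 for destruction. Cdk inhibitors block the kinases that drive the cycle. The CIP/KIP proteins (from Cdkn1a, Cdkn1b and Cdkn1c) bind several cyclin-Cdk complexes, and the INK4 proteins (from Cdkn2a, Cdkn2b, Cdkn2c and Cdkn2d) bind Cdk4 and Cdk6. In human and mouse lung cancer, loss of p53 function and silencing or deletion of INK4 genes are common.

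The p53 protein binds DNA at a site of 2 half-sites of 10 bases. Promoter windows from RefSeq (build GRCm38.p6, 250 bases before to 50 bases after a start) were matched to the members by symbol, and all 10 had at least 1 window, 13 in all. The consensus p53 half-site, which reads the same on both strands, was found in 5 of the 13 windows, from 5 members: Trp53, Mdm2, Cdkn1a, Bax and Ccng1. Of all 32851 windows, 8.36% held it. The upstream window of Cdkn1a held both half-sites with a spacer of 12 bases. The pair ran from base -73 to base -42 counted from that window's own start. The other Cdkn1a window, at chr17:29093519-29093818 (plus strand), belongs to a start further downstream. Of all windows, 24 (0.0731%) held such a pair with a spacer of up to 13 bases. E2F letters (TTTGGCGC, TTTCCCGC, TTTCGCGC or TTTGCCGC, on either strand) stood in 2.26% of windows and, among the members, in 1 window, that of Cdkn2a. A match is a description of the letters only. Only exact matches were counted, so near matches stay in small letters. In Cdkn1a, the letters tgacatgttc directly after GAACATGTCT miss the consensus at their first base only. Shown are the windows of the 4 members that are known p53 targets and hold a half-site; the window of Phlda3, also a known target, and the other window of Cdkn1a held none and are not shown. They are chr17:29090729-29091028 (plus strand) for Cdkn1a, chr10:117710709-117711008 (minus strand) for Mdm2, chr7:45466849-45467148 (minus strand) for Bax and chr11:40755237-40755536 (minus strand) for Ccng1, each written 5′ to 3′ with half-sites in capitals.
Cdkn1a: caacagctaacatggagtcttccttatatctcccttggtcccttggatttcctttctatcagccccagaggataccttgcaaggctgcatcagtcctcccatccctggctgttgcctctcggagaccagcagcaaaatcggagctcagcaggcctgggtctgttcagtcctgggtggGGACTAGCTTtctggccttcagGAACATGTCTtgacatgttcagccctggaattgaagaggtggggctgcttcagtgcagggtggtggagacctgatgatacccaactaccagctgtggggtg
Mdm2: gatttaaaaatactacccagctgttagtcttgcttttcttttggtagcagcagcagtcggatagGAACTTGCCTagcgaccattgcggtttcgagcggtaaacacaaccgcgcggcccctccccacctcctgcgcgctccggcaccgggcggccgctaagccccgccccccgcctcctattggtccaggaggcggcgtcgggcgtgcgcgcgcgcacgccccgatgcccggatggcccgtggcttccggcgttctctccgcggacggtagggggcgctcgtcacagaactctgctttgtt
Bax: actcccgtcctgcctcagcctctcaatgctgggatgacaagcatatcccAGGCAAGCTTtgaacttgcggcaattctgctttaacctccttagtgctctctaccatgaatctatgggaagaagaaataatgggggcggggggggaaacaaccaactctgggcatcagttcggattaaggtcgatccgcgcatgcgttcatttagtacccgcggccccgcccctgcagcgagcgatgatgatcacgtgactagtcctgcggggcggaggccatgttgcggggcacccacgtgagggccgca
Ccng1: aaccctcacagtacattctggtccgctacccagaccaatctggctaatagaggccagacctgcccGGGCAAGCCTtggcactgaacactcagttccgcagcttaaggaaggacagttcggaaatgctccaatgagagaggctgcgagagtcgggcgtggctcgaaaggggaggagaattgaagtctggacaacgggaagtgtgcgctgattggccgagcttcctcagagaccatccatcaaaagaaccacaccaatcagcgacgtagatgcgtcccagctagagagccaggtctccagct

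The libraries held 56542745 to 69456490 counts, and all 10 members passed the filter on low counts that left 23191 genes to test. Markers of the tissue set Control apart: the summed level of 7 alveolar type 2 genes was 23085 to 25804 CPM in Control and 35.4 to 84.7 CPM in the tumours, except Proline 1 at 760.45 CPM. All 7 of these genes, all 6 endothelial genes and all 5 erythroid genes fell in Model against Control, while 6 of 7 macrophage genes rose. Transcripts of other organs were uneven between tumour libraries. The summed level of 7 liver genes was 135.83 and 169.56 CPM in Model 1 and Model 2 and 1.58 to 3.25 CPM in the other 7 tumour libraries, and that of 6 skeletal muscle genes was highest in Taurine 3 at 3088 CPM. Their part in the results below was not tested, and results are given with and without these libraries where a call changed.

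Untreated tumour was compared with normal lung to see how the pathway differs in the tumour tissue. Of the 10 members, 6 rose (Trp53, Mdm2, Ccng1, Phlda3, Bax and Cdkn2c), 2 fell (Cdkn2b and Cdkn1b) and 2 did not pass the test (Cdkn1a and Cdkn2a). Across all genes tested, 28.8% rose and 29.3% fell (58.1% either way), so a large share of calls is the background of this comparison. Calls are at an adjusted p of 0.05 in edgeR's quasi-likelihood test with Benjamini-Hochberg adjustment, as are all adjusted p-values below, and levels are TMM-scaled CPM, in which each count is divided by its library's scaled total.

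Trp53 stood at 43.7, 54.2 and 53.5 CPM in the Control libraries and at 173, 194 and 212 CPM in the Model libraries. Every Model library was above every Control library, as held for 32.4% of all genes (in 36.6% every Model library was below every Control library). The log2 fold change was 1.93 (SE 0.11, adjusted p = 8.88e-08). Mdm2, the ubiquitin ligase that limits p53, rose less, from 63.3, 65.7 and 67.4 CPM to 93.7, 84.3 and 90.3 CPM. Its groups did not overlap either, and its log2 fold change was 0.45 (SE 0.10, adjusted p = 0.00333). In bulk RNA a change in the number of cells that express a gene and a change in RNA per cell cannot be told apart, here or in the results that follow.

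Among the target genes of p53, Ccng1 (cyclin G1, which recruits a phosphatase to Mdm2) had 64.4, 71.5 and 72.6 CPM in Control and 226, 162 and 188 CPM in Model. The groups were well apart although the Model libraries differed among themselves, and the log2 fold change was 1.47 (SE 0.15, adjusted p = 6.87e-06). Bax, which permeabilises the outer mitochondrial membrane in cell death, had 50.4, 53.6 and 54.7 CPM in Control and 124, 104 and 115 CPM in Model. It rose by 1.11 on the log2 scale (SE 0.11, adjusted p = 5.14e-06), without overlap of the groups. Phlda3, a repressor of Akt signalling, had 43.3, 46.0 and 56.7 CPM in Control and 99.95, 78.9 and 84.9 CPM in Model. It rose by 0.85 (SE 0.11, adjusted p = 5.14e-05), again without overlap.

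Cdkn1a, which encodes p21, the Cdk inhibitor most often used as a readout of p53, did not follow. It had 282, 144 and 113 CPM in Control and 188, 149 and 169 CPM in Model. The Control libraries spanned the Model values on both sides, and the log2 fold change was -0.09 (SE 0.28, adjusted p = 0.799). Control 1, the high library, also had the highest summed level of the 5 erythroid genes, 8009 CPM against 3603 and 4716 CPM in Control 2 and Control 3, and its part in the Cdkn1a value was not tested. The direction turned in 4 of 23 alternatives. Among these, the fit without Control 1 gave a log2 fold change of 0.39 that did not pass either (adjusted p = 0.0946). Over all alternatives the adjusted p of Cdkn1a ran from 0.0946 to 0.988.

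**Figure D1:**
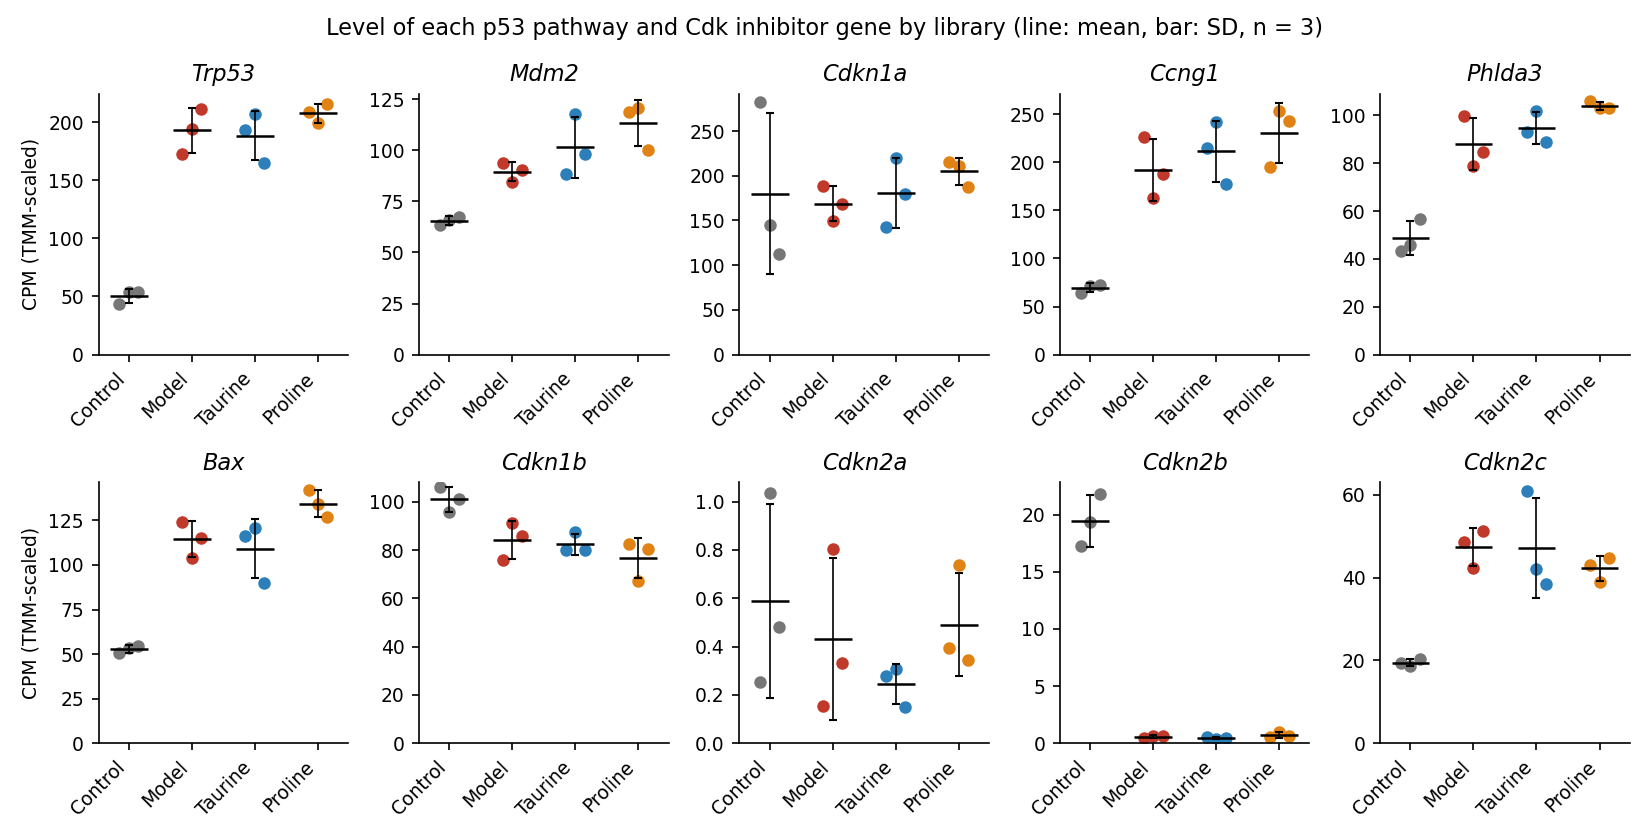
Level of each of the 10 genes (y axis, TMM-scaled CPM from 0, with a separate scale per panel) in the 12 libraries by group (x axis); points are libraries, lines are means and bars are SD (n = 3). Trp53, Mdm2, Ccng1, Phlda3, Bax and Cdkn2c sit higher in all 9 tumour libraries than in Control. Cdkn2b RNA is nearly absent in the tumours, and Control 1 sets the spread of Cdkn1a.

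The Cdk inhibitors moved in different directions. Cdkn2b, whose p15 protein binds Cdk4 and Cdk6, had 17.2, 19.3 and 21.8 CPM in Control and 0.432, 0.602 and 0.647 CPM in Model. The gene's RNA was nearly absent from every tumour library. It fell by 5.11 on the log2 scale (SE 0.33, adjusted p = 1.92e-07), or by 3.08 in limma on log2(FPKM + 1), where the added 1 shrinks the change of low values. The counts behind the Model values were 28, 42 and 41. A noncoding RNA gene on the opposite strand, Gm12610, overlaps it. It had 6, 33 and 13 counts in Control, where Cdkn2b had 957, 1122 and 1272, and 33, 4 and 0 counts in Model. In Model 1 it thus had more counts than Cdkn2b. Without a known strand setting reads of such partners cannot be told apart, and this makes the low tumour values of Cdkn2b less certain than their direction. Cdkn2c, which encodes the INK4 protein p18, went the other way, from 19.4, 18.7 and 20.2 CPM to 48.5, 42.2 and 51.3 CPM. The groups did not overlap, and it rose by 1.28 on the log2 scale (SE 0.16, adjusted p = 2.94e-05).

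Cdkn2a encodes an INK4 protein and, from another start, the p53 activator Arf, and a count per gene does not separate them. It was near the detection limit everywhere, with 0.252, 1.03 and 0.480 CPM in Control and 0.154, 0.803 and 0.331 CPM in Model (10 to 60 counts a library). The groups overlapped, and the log2 fold change of -0.45 (SE 0.73, adjusted p = 0.623) did not pass. Cdkn1b, whose p27 protein holds cells out of the cycle, had 106, 96.0 and 101 CPM in Control and 75.8, 91.1 and 85.8 CPM in Model. It fell by 0.26 on the log2 scale (SE 0.092, adjusted p = 0.0288), but this call was lost in 10 of 23 alternatives, among them without Control 1, Control 3, Model 1 or Model 3.

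Levels of different genes are compared here on the FPKM scale, which divides by gene length. In Control, Cdkn1a was first at 36.4 ± 17.6 FPKM (SD, n = 3), followed by Bax at 24.3 ± 1.42 FPKM and Phlda3 at 22.6 ± 3.58 FPKM, and these 3 neighbours in the order overlapped. In Model, Bax led at 56.9 ± 5.06 FPKM and was above the next gene, Phlda3 at 44.3 ± 5.80 FPKM, in all libraries. Ccng1, Trp53 and Cdkn1a followed at 43.0 ± 7.36, 37.3 ± 3.02 and 37.2 ± 4.41 FPKM without clear separation. Trp53 thus took place 8 of 10 in Control, at 9.03 ± 1.18 FPKM, and place 4 in Model. In Control its libraries overlapped those of Mdm2 and Cdkn2b, the genes placed just above it. Cdkn2b took place 6 in Control at 10.1 ± 1.34 FPKM and place 9 in Model at 0.312 ± 0.0590 FPKM, where it overlapped Cdkn2a.

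Summed over the 4 INK4 genes, a view chosen after the values were seen, the level was 25.6 ± 1.49 FPKM in Control and 25.9 ± 0.141 FPKM in Model. The sum was close in both groups while its makeup was not. Cdkn2b made up 36.1% to 42.1% of it in the Control libraries and 0.937% to 1.36% in the Model libraries. Cdkn2c made up 20.1% to 21.0% and 48.8% to 56.2%. Cdkn2d, which did not pass the test (log2 fold change 0.09, adjusted p = 0.540), made up 36.6% to 42.3% and 41.6% to 47.8%. Among the CIP/KIP genes, Cdkn1c (p57, an imprinted inhibitor) fell by 5.07 on the log2 scale (SE 0.56, adjusted p = 1.38e-05), from 19.0% to 24.6% of the family's FPKM in Control to 0.812% to 0.963% in Model.

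**Figure D2:**
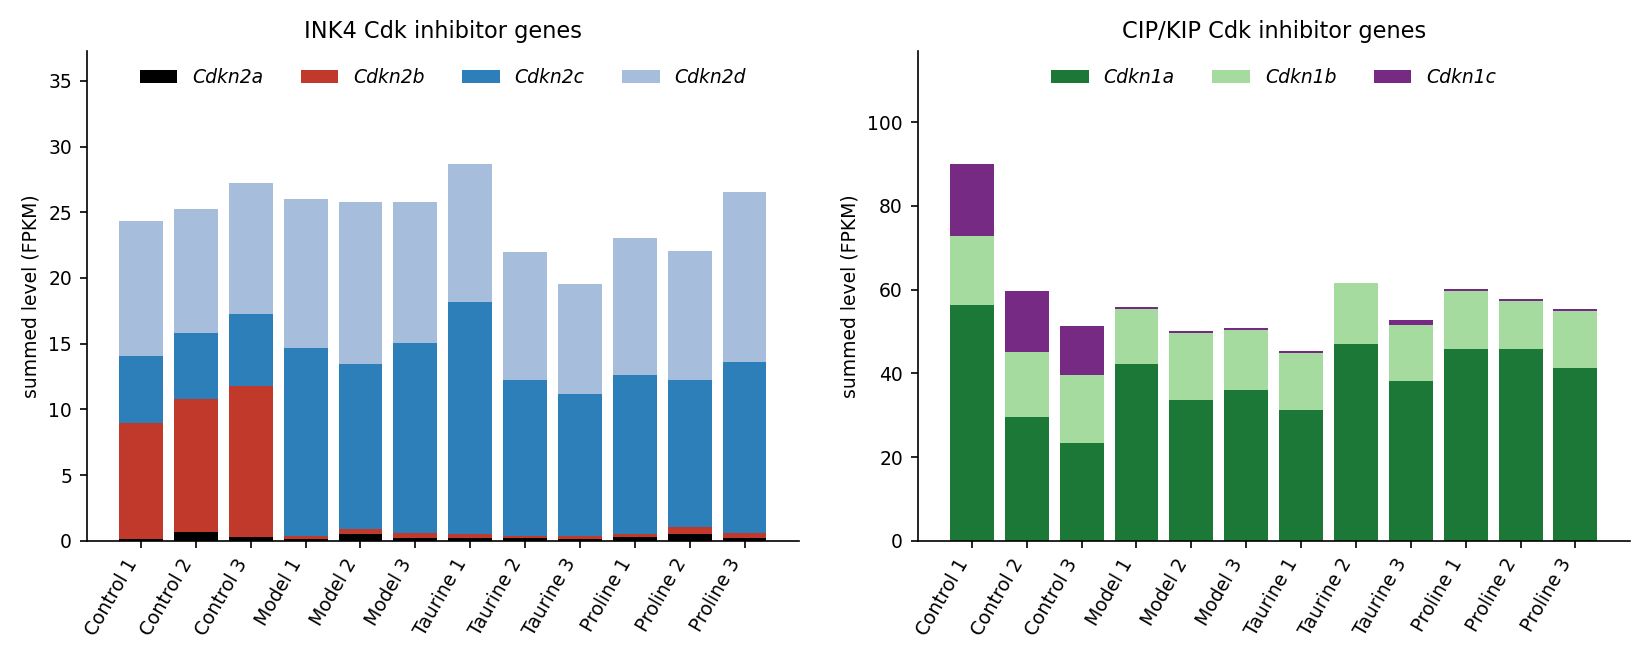
Summed FPKM (y axis, from 0) of the INK4 genes (left) and the CIP/KIP genes (right) in each of the 12 libraries (x axis), with each gene as a coloured block. In all 9 tumour libraries the Cdkn2b and Cdkn1c blocks are almost gone, and Cdkn2c and Cdkn2d fill nearly all of the INK4 bars.

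Cdkn2a and Cdkn2b lie together on mouse chromosome 4, and 11 genes around them were examined, of which 8 passed the filter on low counts. Of these 8, 6 rose, 1 fell and 1 did not pass, against 28.8% higher and 29.3% lower among all genes. Mtap, the methylthioadenosine phosphorylase gene next to Cdkn2a, had 20.2, 22.9 and 20.1 CPM in Control and 148, 147 and 167 CPM in Model. It rose by 2.87 on the log2 scale (SE 0.09, adjusted p = 1.95e-09), while Cdkn2b fell. The cause of either change was not tested. Haus6 (2.01), Focad (1.35), Plin2 (0.83), Mllt3 (0.76) and Klhl9 (0.41) also rose, as log2 fold changes. Tusc1 fell (-2.43), Hacd4 did not pass (-0.30, adjusted p = 0.130), and Dmrta1, Elavl2 and Ifnb1 were too low to test.

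The wider pathway was read from 3 lists of 14 known p53 target genes each, which leave out the members. Together 19 of the 42 targets rose, 14 fell and 9 did not pass, and their median log2 fold change was 0.14 against -0.03 for all genes. Against a background of 28.8% higher and 29.3% lower, the targets moved both ways. Among genes of cell cycle arrest and DNA repair, 5 rose and 7 fell. Zmat3, an RNA-binding protein gene, rose from 21.7 ± 2.52 to 144 ± 13.4 CPM (log2 fold change 2.73), and the damage-response gene Gadd45a and the stress sensor Sesn2 rose by 1.79 and 0.75. Btg2, an antiproliferative gene, fell from 434 ± 36.3 to 15.7 ± 4.03 CPM (log2 fold change -4.79), and the polo-like kinase gene Plk2 (-1.98) and the nucleotide excision repair gene Xpc (-1.04) fell too.

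Among cell death targets, 7 rose and 4 fell. The receptor gene Eda2r rose from 2.30 ± 0.783 to 26.6 ± 2.18 CPM (log2 fold change 3.53), Pidd1, which activates caspase-2, by 2.14 and Zfp385a by 1.88. The death receptor gene Fas fell from 72.8 ± 7.05 to 3.61 ± 0.704 CPM (log2 fold change -4.34), the autophagy modulator Dram1 from 351 ± 25.1 to 9.95 ± 1.48 CPM (-5.14), and Trp53inp1 fell as well (-1.63). Among metabolic and other targets 7 rose and 3 fell. Slc19a2, a thiamine transporter, rose by 3.20, the ribosomal protein gene Rps27l by 1.03 and the adenylate kinase Ak1 by 1.09. The epoxide hydrolase gene Ephx1 (-3.41), the lipid transfer protein gene Pltp (-2.95) and Dcxr (-2.30) fell.

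**Figure D3:**
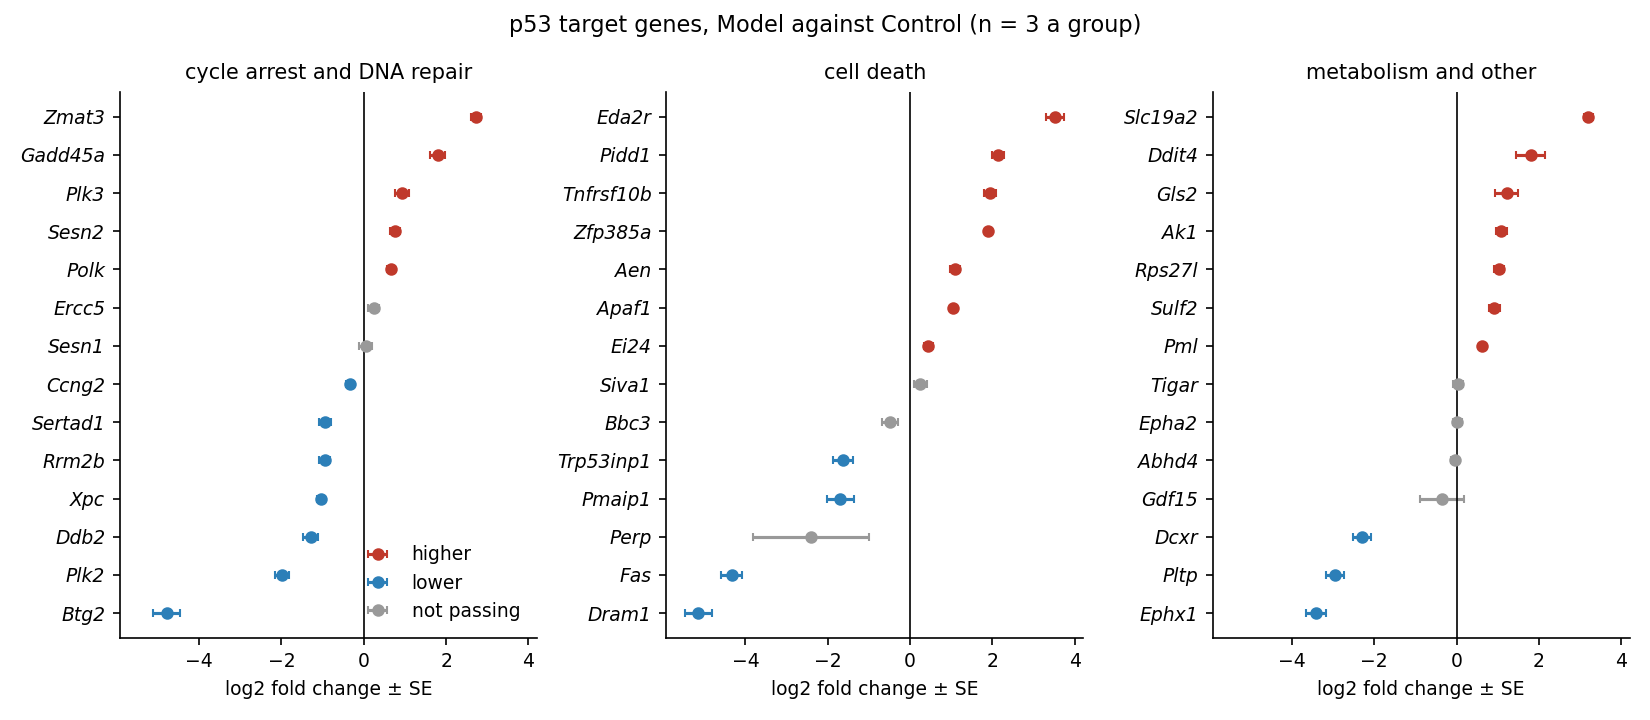
Log2 fold change of Model against Control (x axis) with its SE (bars) for 42 known p53 target genes (y axis, ordered by fold change) in 3 lists; n = 3 libraries a group, with red for genes that rose, blue for genes that fell and grey for genes that did not pass. Each list spreads to both sides of 0, with 19 genes red and 14 blue.

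Of 22 regulators of p53 and of the INK4 genes, 9 rose, 7 fell and 6 did not pass, while 28.8% of all genes rose and 29.3% fell. The damage checkpoint kinases Chek1 (log2 fold change 3.15) and Atr (1.06) and the polycomb methyltransferase Ezh2 (1.45), which silences Cdkn2a in other settings, rose. Tbx2, a T-box repressor of Cdkn2a and Cdkn1a, fell from 331 ± 17.2 to 8.91 ± 1.01 CPM (log2 fold change -5.21), and the polycomb gene Cbx7 (-0.75) and the Arf activator gene Dmtf1 (-0.37) fell. In the Bcl2 family, 6 of 13 genes rose and 5 fell, beside the same 28.8% and 29.3% of all genes. Genes of both functions moved both ways. Of genes that promote death, Bok (1.02), Bak1 (0.90), Bcl2l11 (0.66), Bid (0.88) and Bad (0.54) rose, while Bik (-5.71) and Bmf (-0.94) fell. Of survival genes, Mcl1 (-1.17), Bcl2l2 (-1.26) and Bcl2l1 (-0.94) fell, while Bcl2 (0.37) rose. Bid, Bad, Bik, Bmf and Bcl2 were added to the named genes after their values were seen.

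The list of Cdks, cyclins, E2f and Rb family genes holds the kinases that the inhibitors bind and genes downstream of them. Of its 18 genes, 12 rose and 5 fell, against 28.8% higher and 29.3% lower among all genes. Those with the smallest p were Ccnb1 (6.10), Cdk1 (4.52) and Ccna2 (3.71), while Ccnd3 (-1.13), E2f2 (-1.75) and Rb1 (-0.75) fell. All 14 proliferation genes rose, among them Bub1 (3.77), Foxm1 (3.81) and Mcm5 (3.25), and their median was 3.63. Of 9 genes of other Cdk inhibitors and of p27 turnover, 3 rose and 3 fell, close to the shares of all genes (28.8% and 29.3%). Skp2 (3.18) and Cks1b (4.09), whose products act in the ligase that degrades p27, and the related Cks2 (3.02) rose. Foxo1 (-2.92) and Foxo4 (-1.22), whose products can activate Cdkn1b, fell.

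Treated tumours were then compared with untreated ones to see whether either amino acid moved the pathway. Both comparisons use the same 3 Model libraries, so their values are set side by side. In Taurine against Model, none of the 10 members passed edgeR's test, and neither did any of the 23191 genes (0.0%). No member reached an unadjusted p of 0.05, against 1574 of all genes. DESeq2 called 88 genes and no member. The members' log2 fold changes ran from -0.80 (Cdkn2a) to 0.18 (Mdm2), and 4 of 10 were above 0, against 50.5% of all genes. No member's groups were without overlap, against 5.67% of all genes higher and 6.16% lower throughout.

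In Proline against Model, again 0 members passed in edgeR's test and 0 of all genes (0.0%). Of the members, 2 had an unadjusted p under 0.05, against 3106 of the 23191 genes tested, and DESeq2 called 769 genes and no member. Of the 10 members, 8 had a log2 fold change above 0, against 49.5% of all genes, and their median was 0.24 against 0 for all genes. Mdm2, Bax and Phlda3 were higher in every Proline than in every Model library, as were 8.77% of all genes (9.26% were lower throughout). Mdm2 had 119, 121 and 100 CPM in Proline and 93.7, 84.3 and 90.3 CPM in Model, and its log2 fold change was 0.34 (SE 0.10) with an adjusted p = 0.229 in edgeR's test, and the adjusted p ran from 0.0518 to 0.907 over the alternatives. Phlda3 had 106, 103 and 103 CPM in Proline (log2 fold change 0.24, adjusted p = 0.371), and Bax 142, 134 and 127 CPM (0.23, adjusted p = 0.380). Cdkn1a had 216, 211 and 188 CPM, which overlapped the Model values (0.28, adjusted p = 0.734).

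Some other lists leaned the same way in Proline. Above 0 were 16 of 18 Cdk and cyclin partners (median 0.12) and 12 of 14 proliferation genes (0.15), while 24 of 42 p53 targets were (0.04). In Taurine these counts were 11 of 18, 11 of 14 and 25 of 42. Also above 0 in Proline were 6 of 8 tested genes beside Cdkn2a and Cdkn2b (0.14). Nearer an even split were 7 of 13 Bcl2 family genes (0.06) and 5 of 9 other Cdk inhibitor and p27 turnover genes (0.04). Fewer were above 0 among the p53 regulators (9 of 22, median -0.02) and the arrest and repair targets (6 of 14, -0.07). Among all genes, 49.5% were above 0 in Proline and 50.5% in Taurine. No gene of any of these lists passed edgeR's test in either comparison. Named by the smallest p in Proline, without passing, were Zfp385a (-0.29, adjusted p = 0.145), Cbx7 (-0.48, adjusted p = 0.166), Cdk6 (0.26, adjusted p = 0.191) and Sesn1 (-0.59, adjusted p = 0.202).

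Taurine was also set against Proline directly, a contrast in which the Model means do not enter, although the Model libraries share in the estimate of the spread. No member passed edgeR's test, against 10 of all genes (0.0431%), with 0.0302% higher and 0.0129% lower in Taurine. With only the 2 groups fitted, or without any 1 Model library, the count over all genes was 0. Of the members, 2 had an unadjusted p under 0.05, against 3334 of the 23191 genes tested. DESeq2 called 1075 genes and no member. Bax had 117, 121 and 90.0 CPM in Taurine and 142, 134 and 127 CPM in Proline, and its log2 fold change was -0.30 (SE 0.11) with an adjusted p = 0.242 in edgeR's test. Bax, Phlda3 and Cdkn2a were lower in every Taurine than in every Proline library, as were 7.79% of all genes (8.97% were higher throughout). Cdkn2b had 0.556, 0.339 and 0.453 CPM in Taurine and 0.516, 0.982 and 0.656 CPM in Proline, which overlapped (-0.67, adjusted p = 0.325).

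**Figure D4:**
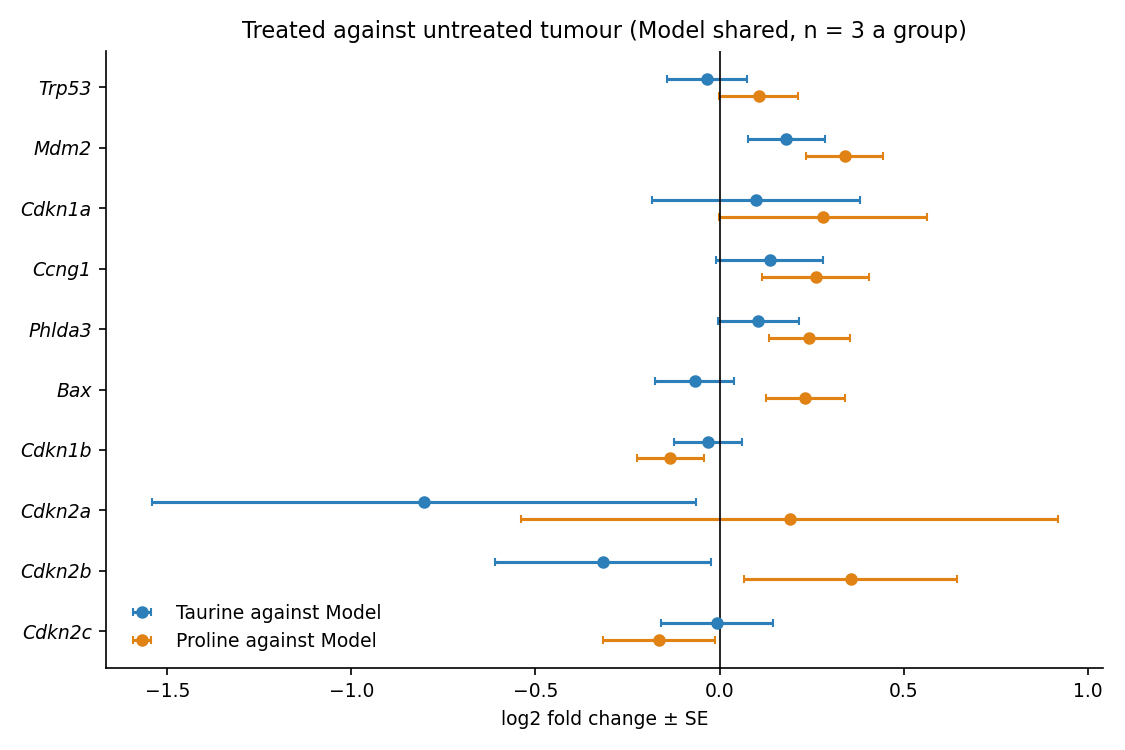
Log2 fold change (x axis) with its SE (bars) of the 10 genes (y axis) in Taurine against Model (blue) and Proline against Model (orange); n = 3 libraries a group, and the Model libraries are the same in both. No gene passed the test, 8 of 10 orange points lie above 0, and Cdkn2a has the widest bars.

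Within the 9 tumour libraries the members varied by different amounts. The coefficient of variation was lowest for Cdkn1b (8.59%) and Trp53 (8.84%) and highest for the barely detected Cdkn2b (32.1%) and Cdkn2a (59.5%), with the other 6 between 9.98% and 15.6%. Cdkn1a ran from 142 CPM in Taurine 1 to 220.1 CPM in Taurine 2, so its extremes lay in 1 group. The tested genes most like it over the 9 libraries, by Pearson correlation of log2(CPM + 1), were Mir6955 (r = 0.942), Parvb (r = 0.938) and Rufy4 (r = 0.933). They were picked as the highest among 23191 genes tested, so a high r was built into the choice. Among the members, compared after the values were seen, Mdm2 (r = 0.923) and Phlda3 (r = 0.772) came closest to Cdkn1a, while Trp53 had r = 0.204 and Cdkn2c r = -0.597. These are descriptions over 9 libraries that share depth and treatment groups.

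Dino, an RNA transcribed beside Cdkn1a and looked at after the values were seen, overlaps it in the table. Its level was 1.69, 0.672 and 0.428 CPM in Control, the same order as Cdkn1a, and 0.821 to 0.989 CPM in Model. It was 1.19 to 1.63 CPM in Taurine and 1.44 to 1.64 CPM in Proline. Every treated library was above every Model library. Taken by treatment, 5.67% of all genes were higher throughout in Taurine than in Model, and 8.77% in Proline. Both shares use the same Model libraries, and the share of genes higher in both treatments was not counted. None of the 4 comparisons of Dino passed edgeR's test (adjusted p = 0.490 in Proline against Model and 0.845 in Taurine against Model). Its counts came to 0.650% of those of Cdkn1a, and without a known strand setting reads of the 2 genes cannot be told apart.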

How the data were processed

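RNA of 12 libraries (SMARTer mRNA kit, per the labels' protocols) was analysed from 1 table. The authors deposited raw counts per gene, unnormalised per the file headers, and FPKM values, which per the file headers scale fragments to gene length and library total. The submitters' processing notes name mm10. No aligner, counting program or strand setting is named in the labels or headers. Start and end matched a GRCm38 annotation for 656 (1.94%) of 33734 shared gene IDs, so no positions from the table are printed. No pair of libraries had near identical counts.

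Counts were tested with edgeR 4.0.16 (quasi-likelihood, R 4.3.3 and limma 3.58.1), two-sided, with TMM scaling, a minimum count of 10 in the filter and all 12 libraries in 1 fit (biological coefficient of variation 0.437). DESeq2 1.42.0, limma on log2(FPKM + 1) or log2(FPKM + 0.1), other scalings, no filter, only the 2 groups compared and leaving out libraries were alternatives. The fits were checked on simulated counts. Each SE was taken as the absolute log2 fold change over the root of the F statistic. CPM are TMM-scaled. In each list, up to 3 genes per direction with the smallest adjusted p are named, or up to 2 where none passed. The members and lists were chosen with earlier results of these data known, and the family sums, Dino, the member correlations, the promoter windows and motifs shown, and 3 added alternatives were chosen after values were seen.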

Additional observations from a re-analysis of the deposited data

How the results depend on the processing

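In Model against Control, 7 of the 8 called members kept their call and direction in 23 of 23 alternatives, of which 3, each leaving out a pair of libraries, were added after the data were seen. Cdkn1b kept its direction in all 23 and lost its call in 10 (log2 fold change -0.34 to -0.14, adjusted p = 0.00176 to 0.182): no scaling factor, no filter, both limma fits, without Control 1, Control 3, Model 1 or Model 3, without Control 1 and Proline 1, and without Model 1 and Model 2. The cause was not tested. The last of these left 1 Model library, assumed to vary like the other groups. No member passed in the treated comparisons in any of the 23 alternatives. Over 230 settings of all members, called or not, in each of the 4 comparisons, uncalled values changed sign 5, 13, 2 and 1 times, in the order the report gives them. The 5 in Model against Control came from the uncalled members, Cdkn1a (4 of 23) and Cdkn2a (1 of 23). The 49 other genes named by the smallest adjusted p in Model against Control kept their calls in 1127 of 1127 settings. Plin2, Mllt3, Klhl9, Bid, Bad, Bik, Bmf and Bcl2 were not followed through the alternatives gene by gene. Counts of the 9 lists stayed within 1.5 times in 207 of 207. Median ratio scaling moved the median of all genes in Model against Control from -0.03 to -0.11.

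Counts over all genes moved more. In Taurine against Model (main count 0), DESeq2 called 88, limma 2 with a pseudocount of 1 and 1 with 0.1, leaving out 1 library 0 to 7 (7 without Model 3), and without Model 1 and Model 2 the count was 1. In Proline against Model (0), DESeq2 called 769, limma 3 and 4, leaving out 1 library 0 to 232 (232 without Proline 3, 12 without Model 3), without Proline 1 and Taurine 3 the count was 7, and without Model 1 and Model 2 it was 1. In Taurine against Proline (10), DESeq2 called 1075, limma 0 and 1, leaving out 1 library 0 to 312 (312 without Proline 3, 51 without Taurine 1), without Proline 1 and Taurine 3 it was 4, and it was 0 with median ratio scaling, without the filter, with only the 2 groups, without Control 1 and Proline 1, and without Model 1 and Model 2. The cause was not tested. No paired analysis was possible because the labels give no replicate numbers shared between groups.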
